A study of Cladosporium europaeum with 50 samples.

Results

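Protein kinases, phosphatases and signalling proteins of the filamentous fungus Cladosporium europaeum F32, isolated from soil with past pollution by polychlorinated biphenyls (PCB), were followed across 4 PCB congeners. The members are the genes whose deposited annotation names a protein kinase, an AGC/AKT or Aurora kinase, a phosphatase, a GTPase, a GTP-binding or guanine nucleotide protein, a G-protein, calmodulin, phospholipase C, cAMP or a stress response protein. These words selected 24 of the 705 annotated genes, among 920 genes listed in all. The words GTPase, GTP-binding and calmodulin matched no gene. Mycelium grew with 6 mg/L of PCB180, PCB153, PCB101 or PCB52 and 5 g/L glucose, or with the same glucose and no PCB (control), and polyadenylated RNA was taken at 24 h and 96 h, with 5 samples in each of 10 groups. The congeners carry an increasing number of chlorine atoms in the order PCB52, PCB101, PCB153 and PCB180. All groups are the same single isolate, and the labels do not say that replicates were separate cultures, so the p-values measure the spread between these samples only.

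Fungal cells pass on signals from nutrients and stress through receptors coupled to G proteins, through second messengers such as cAMP, calcium and inositol phosphates, and through cascades of protein kinases. Kinases add phosphate groups to proteins, and phosphatases take them off. In filamentous fungi such routes are known to act on growth of the hypha, spore formation, cell wall upkeep and the use of carbon sources.

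The values are the authors' comparisons of congener with same-hour control, without values for single samples, so each gene is described by its log2 fold change and its standard error. A gene was listed when its adjusted p was under 0.05 and its log2 fold change was at least 1 in either direction, and "rose" and "fell" refer to listed genes. Every member is therefore a listed gene in at least 1 comparison, and a member that is not listed in another comparison was not shown to be unchanged there. Library depth is unknown, and the mean normalized count, 1 value per gene, stands in for abundance. It is not divided by gene length, so it is not compared between single genes as a level. Whole mycelium was sequenced, so less transcript per cell and fewer cells that carry a transcript cannot be told apart. No sequence of these genes was used here.

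At 96 h all 24 members were listed for PCB180, 3 for PCB153 and 1 for PCB101, and none for PCB52 at either hour or for any congener at 24 h. Those comparisons hold at most 6 listed genes each, and the tables used here have no row for PCB101 at 24 h. Most of them fell under PCB180. In that comparison 20 members fell and 4 rose in the authors' deposited table, whereas of all 620 annotated genes listed there 42.9% fell. The share among the members was 83.3%, and among the other 596 annotated genes it was 41.3%. Of the 3 members listed for PCB153, 2 rose and 1 fell, and of the 194 annotated genes listed there 26.3% fell. Over all genes behind the authors' adjustment, 4.59% were listed as risen and 2.67% as fallen under PCB180, 1.82% and 0.579% under PCB153, and 0.0707% as risen under PCB101. Since the members were drawn from listed genes, their presence in the list is no result, and the direction is what the data describe.

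The median count of the members was above that of the other annotated genes listed for PCB180. The members' median mean normalized count was 954, with a range of 135 to 4638, against a median of 377 and a range of 10.7 to 119992 for the other annotated genes, in the authors' deposited table. Abundance and direction went together in this list, since the other genes that fell had a median count of 569 and those that rose one of 272. Within the members' range of counts, 192 of 406 other annotated genes fell, or 47.3%. These genes share the ends of the members' range and were not matched on abundance within it, and the part of abundance in the members' direction was not tested.

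**Figure D1:**
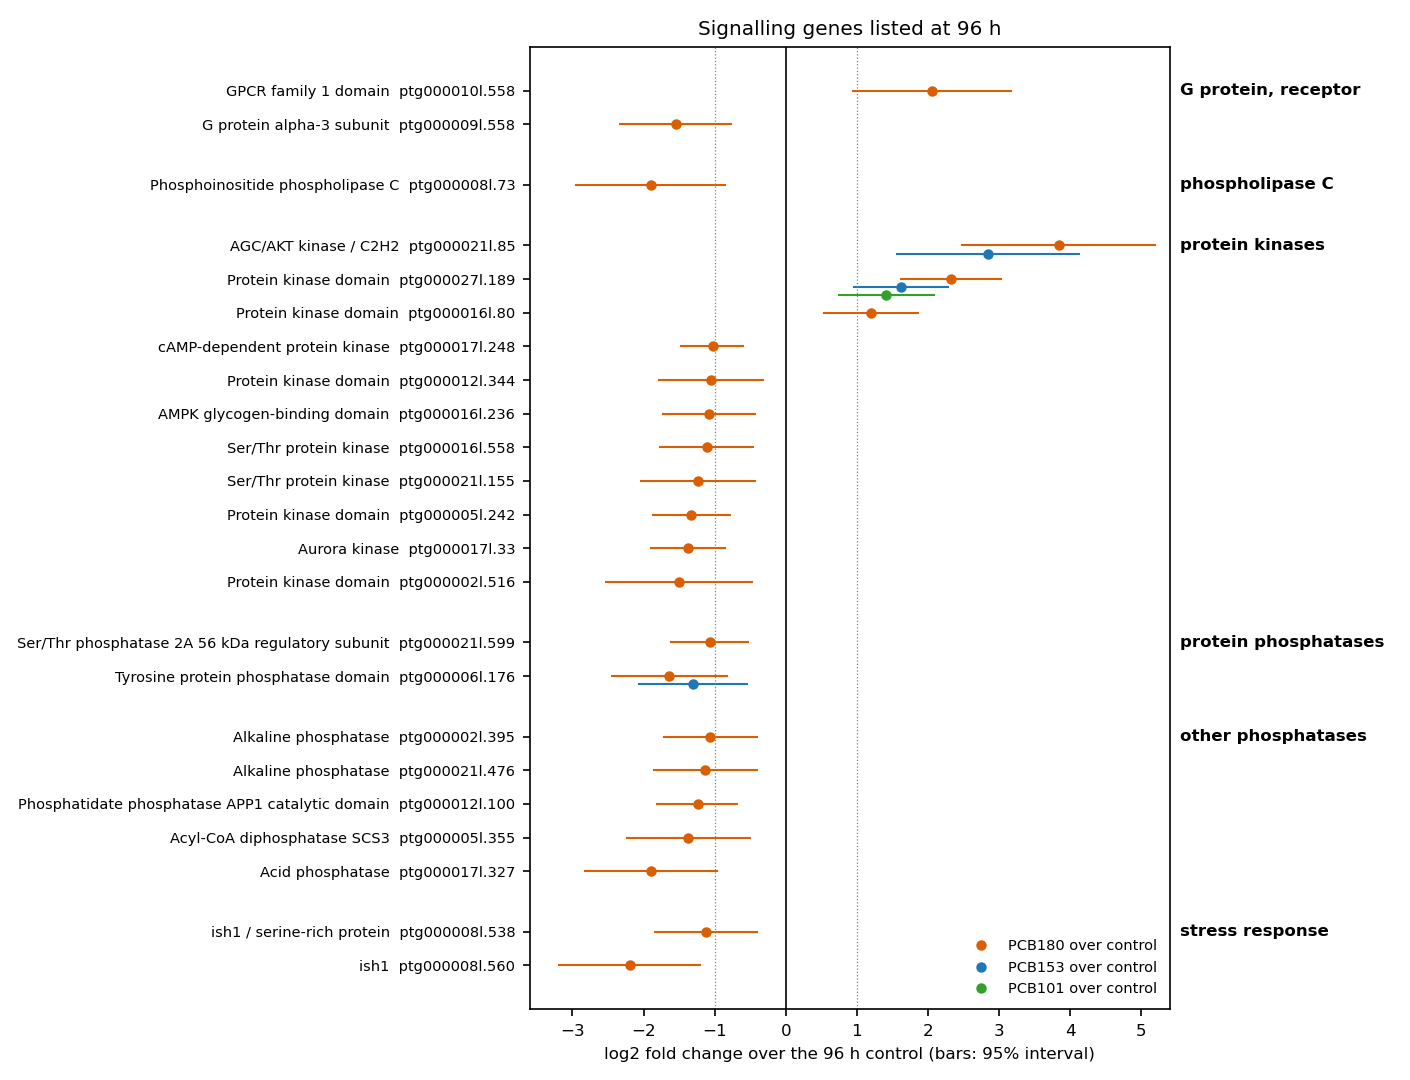
Log2 fold change over the 96 h control (horizontal axis, bars are 95% intervals) of 23 of the 24 signalling genes, grouped by role, for PCB180, PCB153 and PCB101 where listed. Of the PCB180 points 19 lie left of 0 and 4 right of it, and the dotted lines mark a log2 fold change of 1 in either direction.

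At the membrane, the 2 members tied to G proteins moved in opposite directions under PCB180. A protein with the profile of family 1 G-protein coupled receptors (ptg000010l.558), which are receptors that switch on G proteins when a ligand binds, rose by a log2 fold change of 2.06 ± 0.56 (standard error), or 4.17-fold, with adjusted p = 0.00771 in the authors' deposited table. The guanine nucleotide-binding protein alpha-3 subunit (ptg000009l.558), the part of a G protein that binds GTP and in other fungi acts on cAMP formation, fell by 1.55 ± 0.40 on the log2 scale, a 2.93-fold lower level, with adjusted p = 0.00382 in the authors' deposited table. The intervals of the receptor, 0.95 to 3.17, and of the alpha subunit, -2.33 to -0.77, both kept clear of 0. The receptor had the lowest mean normalized count of the members, 135, in the authors' deposited table. A second receptor-like gene, annotated as a family A G protein-coupled receptor-like protein (ptg000007l.299) and missed by the member words because of its spelling, fell by 1.09 ± 0.33 on the log2 scale, by the authors' deposited table.

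Below the G protein, both members named for a second messenger route fell under PCB180. The cAMP-dependent protein kinase (ptg000017l.248), which cAMP switches on, fell by 1.03 ± 0.22 on the log2 scale, with adjusted p = 0.000386 in the authors' deposited table. This was the smallest fall among the members and the one with the smallest standard error, with an interval of -1.47 to -0.60. Phosphoinositide phospholipase C (ptg000008l.73), which cuts a membrane lipid into inositol trisphosphate and diacylglycerol, fell by 1.90 ± 0.53 on the log2 scale, 3.74-fold, with adjusted p = 0.00956 in the authors' deposited table.

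Of the 11 members annotated as protein kinases, 8 fell and 3 rose under PCB180. The kinases that fell had log2 fold changes between -1.50 and -1.03, a narrow span next to the standard errors of 0.22 to 0.53 in the authors' deposited table. Aurora kinase (ptg000017l.33), which acts in chromosome segregation at mitosis, fell by 1.37 ± 0.27 on the log2 scale at an adjusted p of 5.96e-05, and a protein kinase domain gene (ptg000005l.242) fell by 1.33 ± 0.28 at an adjusted p of 0.000194, by the authors' deposited table. These and the cAMP-dependent kinase were the kinases that fell with an adjusted p under 0.001. A gene with the glycogen-binding domain of AMP-activated protein kinase (ptg000016l.236), a domain carried by the regulatory beta subunit of that energy sensor and not by its catalytic part, fell by 1.08 ± 0.33 on the log2 scale with adjusted p = 0.0195 in the authors' deposited table.

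The remaining kinases that fell carry only a general annotation. Both genes annotated as non-specific serine/threonine protein kinases fell, ptg000021l.155 by 1.23 ± 0.41 and ptg000016l.558 by 1.11 ± 0.33 on the log2 scale, at adjusted p of 0.034 and 0.0161 in the authors' deposited table. The protein kinase domain genes ptg000002l.516 and ptg000012l.344 fell by 1.50 ± 0.53 and 1.05 ± 0.37 on the log2 scale, with adjusted p of 0.0446 and 0.0482, close to the listing threshold, in the authors' deposited table. Which pathways these 4 kinases belong to is not given by the annotation.

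The 3 kinase genes that rose under PCB180 included the members with the largest changes. The gene ptg000021l.85 rose by a log2 fold change of 3.84 ± 0.69, or 14.3-fold with a 95% interval of 5.59 to 36.5, with adjusted p = 9.65e-06 in the authors' deposited table. It carries the annotation AGC/AKT protein kinase and also that of a C2H2-type zinc finger, a domain that usually binds DNA, so its place among the kinases rests on 1 of its annotations. A protein kinase domain gene (ptg000027l.189) rose by 2.32 ± 0.36, or 5.0-fold, with adjusted p = 7.35e-08 in the authors' deposited table, which ranked 11 by p among the 821 genes listed for PCB180. A further protein kinase domain gene (ptg000016l.80) rose by 1.20 ± 0.34 with adjusted p = 0.0108 in the authors' deposited table.

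Both protein phosphatases fell under PCB180. The 56 kDa regulatory subunit of serine/threonine-protein phosphatase 2A (ptg000021l.599), a subunit that directs the enzyme to its substrates, fell by 1.07 ± 0.27 on the log2 scale with adjusted p = 0.00382 in the authors' deposited table. A protein with a tyrosine specific protein phosphatase domain (ptg000006l.176) fell by 1.64 ± 0.41 on the log2 scale with adjusted p = 0.00318 in the authors' deposited table.

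All 6 phosphatases not annotated as protein phosphatases also fell under PCB180, and 5 of them are described here. Acid phosphatase (ptg000017l.327), of an enzyme type that frees phosphate from organic compounds, fell by 1.90 ± 0.47 on the log2 scale, 3.73-fold, with adjusted p = 0.00287 in the authors' deposited table. The alkaline phosphatases, which free phosphate at high pH, fell less, ptg000021l.476 by 1.14 ± 0.37 and ptg000002l.395 by 1.06 ± 0.34 on the log2 scale at adjusted p of 0.0285 and 0.0245, in the authors' deposited table. A gene with the catalytic domain of phosphatidate phosphatase APP1 (ptg000012l.100), which in yeast turns phosphatidate into diacylglycerol, fell by 1.24 ± 0.29 on the log2 scale with adjusted p = 0.00129 in the authors' deposited table. SCS3 (ptg000005l.355), annotated as an acyl-coenzyme A diphosphatase of the FIT family of lipid droplet and endoplasmic reticulum proteins, fell by 1.37 ± 0.44 on the log2 scale with adjusted p = 0.0284 in the authors' deposited table. These 6 entered by the word phosphatase and are not signalling proteins by that word alone. Without them, 14 members fell and 4 rose.

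Both genes annotated as stress response protein ish1, which in fission yeast is a protein of the nuclear envelope induced by stress, fell under PCB180. The fall was 2.19 ± 0.51 on the log2 scale for ptg000008l.560, 4.58-fold with a 95% interval of 2.3 to 9.12, with adjusted p = 0.00119 in the authors' deposited table. This was the largest fall of the members. The other gene, ptg000008l.538, which is also annotated as a conserved serine-rich protein, fell by 1.12 ± 0.37 on the log2 scale with adjusted p = 0.0318 in the authors' deposited table. Their 95% intervals, -3.19 to -1.20 and -1.84 to -0.40, overlap.

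The sizes of the falls did not set the members apart from the rest of the list. The median log2 fold change of the 20 members that fell was -1.29, and that of the 246 other annotated genes that fell was -1.24, by the authors' deposited table. The 95% interval lay wholly beyond a log2 fold change of 1 for 2 of the 20 members that fell and for 22 of the 246 others. With both directions together, these were 4 members, or 16.7%, and 13.1% of the other annotated genes. Among the 4 members were ptg000021l.85 and ptg000027l.189, which rose, and ish1 gene ptg000008l.560, which fell. An adjusted p under 0.01, again in both directions, was reached by 14 of the 24 members, or 58.3%, and by 48.3% of the other annotated genes. For the 20 members whose interval did not lie wholly beyond 1, the direction is measured, and a change of less than 2-fold lies inside the interval.

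**Figure D2:**
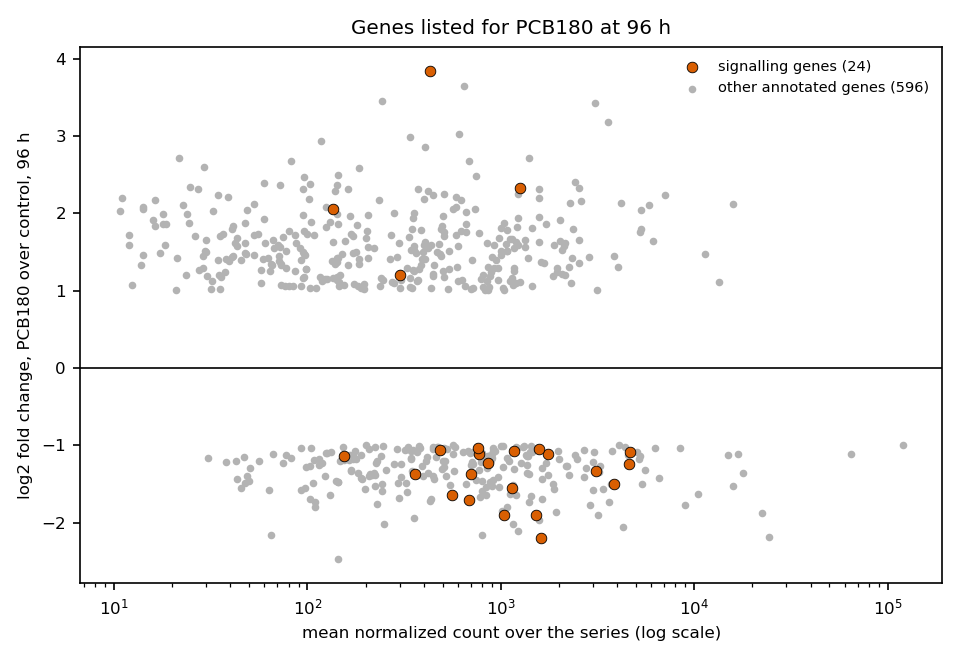
Log2 fold change under PCB180 over the 96 h control (vertical axis) against mean normalized count (horizontal axis, log scale) for the 24 signalling genes and the 596 other annotated genes listed there. Most members lie below 0, between counts of 156 and 4638, and the gap around 0 is the listing threshold.

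The comparison between congeners asks whether the same genes answer to PCBs with fewer chlorine atoms. 3 genes can be set side by side, since 21 of the 24 members were listed for PCB180 alone. Most of the whole list was also absent for PCB153. Of the 620 annotated genes listed for PCB180, 117 were listed for PCB153 as well. The kinase domain gene ptg000027l.189 rose under each of 3 congeners at 96 h, by a log2 fold change of 2.32 ± 0.36 for PCB180, 1.62 ± 0.34 for PCB153 and 1.41 ± 0.34 for PCB101, in the authors' deposited table. Its adjusted p was 7.35e-08 for PCB180, 0.000505 for PCB153 and 0.0413 for PCB101 in the same table. The AGC/AKT and C2H2 gene ptg000021l.85 rose by 3.84 ± 0.69 under PCB180 and 2.84 ± 0.65 under PCB153, and the tyrosine phosphatase domain gene ptg000006l.176 had log2 fold changes of -1.64 ± 0.41 and -1.31 ± 0.39 for PCB180 and PCB153, per the authors' deposited table. All of these comparisons share the 96 h control samples, so their directions are not independent of each other.

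The differences between congeners were tested from the deposited fold changes and standard errors, with a two-sided normal test that takes a correlation of 0.5 for the shared control. Over the 171 genes listed for both PCB180 and PCB153, 0% had an adjusted p of the difference under 0.05. Genes listed for only 1 of these congeners have no value for the other and could not enter this test. The 0% therefore says nothing about them. For ptg000027l.189 the difference of PCB180 minus PCB153 was 0.70 on the log2 scale with a 95% interval of 0.02 to 1.38. Its Benjamini-Hochberg adjusted p was 0.421, and the unadjusted p was 0.0438. With a correlation of 0.8 in place of 0.5 its adjusted p was 0.0143, so the call from this test depends on the correlation taken. The share of the 171 genes that passed at 0.8 is not given here. For ptg000021l.85 it was 0.99 (-0.32 to 2.31) at an adjusted p of 0.85. The difference was -0.33 (-1.12 to 0.45) for the tyrosine phosphatase gene ptg000006l.176, at an adjusted p of 0.997. These intervals allow changes of more than 2-fold between the congeners, so a like response is not shown either.

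PCB101 could be compared through ptg000027l.189 alone. Its difference of PCB180 minus PCB101 was 0.91 on the log2 scale, with a 95% interval of 0.23 to 1.59 and an adjusted p of 0.0209 over the 7 genes listed for both, of which 42.9% passed. Adjusted over all 187 gene and pair combinations of the 3 congener pairs, that p became 0.186. The difference of PCB153 minus PCB101 was 0.21 (-0.45 to 0.87) at an adjusted p of 0.614, and 0% of the 9 genes listed for both passed. The authors' deposited table also holds 1 gene for PCB180 directly against PCB153, an L-galactonate dehydratase (ptg000017l.227), which is no member. Its log2 fold change there was 0.86 ± 0.16, under the 1 required in the comparisons with control. That direct comparison rests on no correlation assumed here, and no member was listed in it, ptg000027l.189 included. Absence from it does not show that a member changed alike under both congeners.

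**Figure D3:**
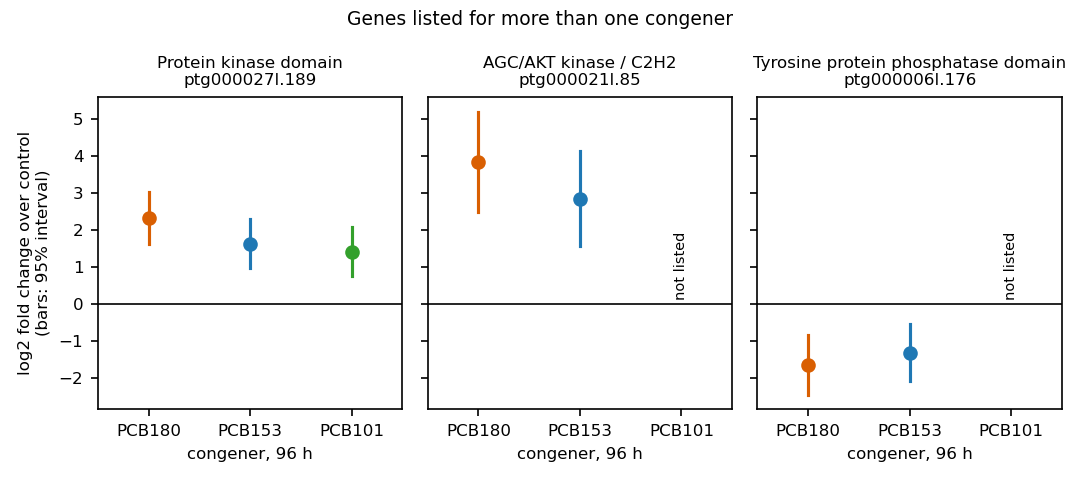
Log2 fold change over the 96 h control (vertical axis, bars are 95% intervals) of the 3 signalling genes listed for more than 1 congener, by congener. The intervals of each gene overlap between congeners, and a congener marked as not listed has no value in the deposited tables.

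Other signalling genes were counted by further annotation words. All 5 listed genes under the calcium handling words fell under PCB180, against the 42.9% of all annotated genes listed there. These words also took in a C2 domain protein and a calcium-dependent enzyme, whose annotations do not name calcium transport. The vacuolar calcium ion transporter (ptg000017l.223), which moves calcium out of the cytosol into the vacuole, fell by 1.39 ± 0.29 on the log2 scale under PCB180 and by 1.17 ± 0.27 under PCB153, per the authors' deposited table. Genes with a sodium/calcium exchanger membrane region fell by 1.23 ± 0.33 (ptg000003l.703) and 1.03 ± 0.29 (ptg000015l.320) under PCB180 in the authors' deposited table. A C2 domain protein (ptg000015l.381), of a domain that often binds calcium and lipids, fell by 1.07 ± 0.30 and a calcium-dependent phosphotriesterase (ptg000002l.13) by 1.25 ± 0.35 on the log2 scale, by the authors' deposited table. The phosphotriesterase also fell under PCB153, by 1.23 ± 0.33 on the log2 scale, and the other 3 genes were not listed there, as the authors' deposited table shows.

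Most genes under the receptor and adaptor words rose under PCB180, as did 57.1% of all 620 annotated genes listed there. Of 10 genes listed for PCB180 under the receptor words 9 rose, and all 9 are rhodopsin domain proteins, an annotation that does not itself name a receptor. Their log2 fold changes ran from 1.01 to 1.84 in the authors' deposited table. Of 7 genes with scaffold and adaptor domains 6 rose, with a WD40 repeat-like protein (ptg000015l.332) at 1.65 ± 0.31 and an ankyrin repeat protein (ptg000018l.408) at 1.72 ± 0.40, while a PH domain protein (ptg000006l.468), of a domain that binds phosphoinositides, fell by 1.13 ± 0.34, in the authors' deposited table. A gene annotated with an anaphase-promoting complex subunit 4 WD40 domain (ptg000012l.197) rose by 1.38 ± 0.38 under PCB180 and by 1.78 ± 0.36 under PCB153, by the authors' deposited table. The annotation names the domain and does not place the gene in that complex.

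**Figure D4:**
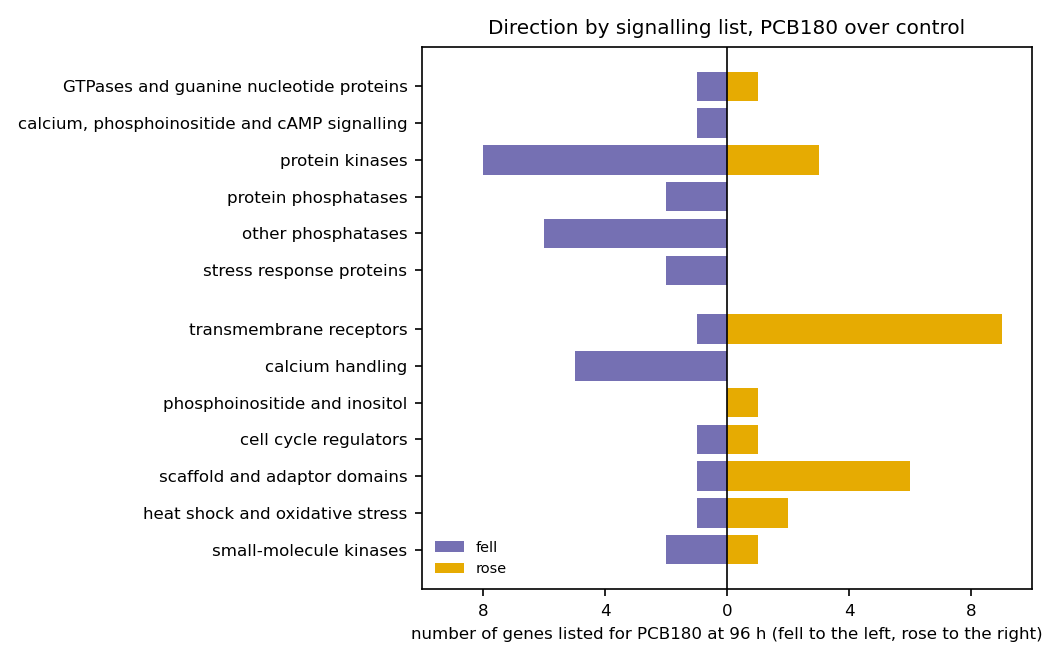
Number of genes listed for PCB180 at 96 h (horizontal axis) that fell, to the left, and that rose, to the right, for the roles of the 24 signalling genes (upper 6 bars) and for other signalling words (lower bars). Kinases, phosphatases and calcium handling lie mostly to the left, and the receptor and scaffold words mostly to the right.

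Cell cycle and stress words were split. G2/mitotic-specific cyclin-B (ptg000019l.187), the partner of the kinase that starts mitosis, fell by 1.24 ± 0.38 on the log2 scale under PCB180, whereas a cyclin-like domain protein (ptg000005l.524) rose by 1.41 ± 0.29, in the authors' deposited table. Of 3 genes under the heat shock and oxidative stress words 2 rose under PCB180, beside 57.1% of all annotated genes listed there. A catalase core domain protein (ptg000019l.156) rose by 1.77 ± 0.56 and a DnaJ co-chaperone (ptg000006l.77) by 1.99 ± 0.59, in the authors' deposited table. The thioredoxin domain protein ptg000002l.457 fell by 1.40 ± 0.30 on the log2 scale, by the authors' deposited table. The catalase and the co-chaperone had low mean normalized counts, 96.1 and 17.8, in the authors' deposited table. The only gene under the phosphoinositide words, a phosphatidylinositol N-acetylglucosaminyltransferase subunit (ptg000017l.266), belongs to the making of membrane anchors and not to signalling, and rose by 2.08 ± 0.65 in the authors' deposited table. A histidine kinase (ptg000011l.130), a sensor type that fungi use for osmotic and oxidative stress, rose under PCB153 by 1.27 ± 0.34 and was not listed for PCB180, in the authors' deposited table.

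Among other kinases, an ABC1 atypical kinase-like gene (ptg000008l.87) fell by 1.56 ± 0.37 and an adenylate kinase isoenzyme 6 homolog (ptg000010l.52) by 1.05 ± 0.35 on the log2 scale, whereas gluconokinase (ptg000019l.109), which feeds gluconate into the pentose phosphate pathway, rose by 1.95 ± 0.56 under PCB180 in the authors' deposited table. Genes under Ras and cell signalling words were not caught by the member words, and those named here were picked after their values were seen. The Ras-related protein RSR1 (ptg000017l.164), which in yeast marks the site of the next bud, rose by 1.55 ± 0.27 under PCB180 and by 1.27 ± 0.25 under PCB153, by the authors' deposited table. A Ras-GAP domain protein (ptg000012l.274), of a family that switches Ras off, fell by 1.60 ± 0.54 on the log2 scale under PCB180, and a putative cell signaling protein (ptg000016l.335) fell by 1.90 ± 0.31 under PCB180 and by 1.09 ± 0.29 under PCB153, per the authors' deposited table.

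The members lie on 11 of the 19 contigs that hold listed genes. For 9 of the 24, or 37.5%, another PCB180 gene has a gene number at most 2 away, and the same holds for 28.9% of the other 797 PCB180 genes. The neighbours moved in the member's direction for 8 of the 9, and in the gene's direction for 155 of the 230 other genes with such a neighbour, or 67.4%. The kinase domain gene ptg000027l.189 lies 2 numbers before an aspartate aminotransferase (ptg000027l.191), which rose by 3.02 ± 0.49 under PCB180 and by 1.99 ± 0.47 under PCB153, both as in the authors' deposited table. The AGC/AKT and C2H2 gene directly follows the alpha subunit of 2-oxoisovalerate dehydrogenase (ptg000021l.84), an enzyme of branched-chain amino acid breakdown, which rose by 1.36 ± 0.41 under PCB180 in the authors' deposited table. A Zn(2)-C6 transcription factor domain gene (ptg000016l.81) directly follows the kinase domain gene ptg000016l.80 and rose by 1.53 ± 0.35 in the authors' deposited table. Next to the APP1 phosphatase gene, a MYND-type zinc finger gene (ptg000012l.101) fell by 1.20 ± 0.36 on the log2 scale, and 2 numbers from the tyrosine phosphatase gene a urea carboxylase (ptg000006l.174) fell by 1.27 ± 0.29, both under PCB180 in the authors' deposited table. The exception under PCB180 is ish1 gene ptg000008l.560, where a secreted protein gene (ptg000008l.558) rose by 1.70 ± 0.50 in the authors' deposited table. Some neighbours were listed for PCB153 and not for PCB180. An unannotated gene (ptg000005l.244) near the fallen kinase gene ptg000005l.242 rose by 2.92 ± 0.57 under PCB153. An endoplasmic oxidoreductin-1 gene (ptg000016l.235) directly before the fallen gene ptg000016l.236 rose by 1.61 ± 0.39 under PCB153. Gene numbers give the order along a contig and no distance.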

How the data were processed

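RNA extraction with TRIzol and polyA library preparation are stated per the labels. No aligner, counter, test program, build or gene annotation is named in the sources used here. The deposited tables hold 1 row per gene and comparison. Per the file headers, the authors computed a log2 fold change, its standard error (log2), a test statistic (a score), a p-value before and after adjustment, and a mean normalized count (a signal with no values below 0). A shorter deposited table gives the annotation, with values rounded to 2 decimals. No values per sample were used here.

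The members and lists were chosen with earlier results of these data known. Annotations were searched without regard to case, and values came from the longer table. How many genes the authors adjusted over was worked out as the whole number for which the p before adjustment over the adjusted p gives whole ranks (tolerance 0.0001). This gave 11313 genes for PCB180 and PCB101 and 10874 for PCB153. Differences between congeners were tested with a two-sided normal test and Benjamini-Hochberg adjustment over the genes listed for both, and the pairs with PCB101 were added after the values were seen. The difference test and the recovery of gene numbers were run on simulated data first. Intervals are 95% normal intervals and folds are powers of 2 of the log2 fold changes. Of the members, 23 were named, and 1 that is in every count is not reported here by itself. They stand with other signalling genes by annotation words and listed genes at most 2 gene numbers away. Alternatives were stricter thresholds on the adjusted p and the log2 fold change, other ways to choose members and other correlations. Python 3.11.15, pandas 2.3.3, NumPy 2.4.6 and SciPy 1.17.1 were used.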

Additional observations from a re-analysis of the deposited data

How the results depend on the processing

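At an adjusted p under 0.01, 11 of the 20 PCB180 members that fell and 3 of the 4 that rose were left, with 2 risen and 0 fallen for PCB153 and 0 for PCB101. At an adjusted p under 0.001, 4 fallen and 2 risen were left for PCB180, 1 risen and 0 fallen for PCB153, and 0 for PCB101. At a log2 fold change of 2 or more in either direction, 1 fallen and 3 risen were left for PCB180, 1 risen and 0 fallen for PCB153, and 0 for PCB101. At this last cut more members had risen than fallen under PCB180, the reverse of the main count. Fewer genes pass these stricter thresholds by construction. The share of the other annotated genes left in each direction at these cuts is not given here. Falls were also smaller than rises among the other annotated genes listed for PCB180. Their median log2 fold change was -1.24 for those that fell and 1.52 for those that rose. The extremes of these other genes were -2.47 and 3.65. Without ptg000021l.85, an alternative chosen after seeing the data, 1 risen gene was left for PCB153 and 3 for PCB180. Using the first annotation left 19 fallen for PCB180, and leaving out phosphatases not annotated as protein phosphatases left 14. Leaving out the lowest 25% of listed genes by mean normalized count (77.5 or less) could remove no member. The lowest count among the members was 135, so this alternative does not test their counts. The number of members whose PCB180 and PCB153 changes differed was 0 with a correlation of 0.5 or 0, and 1 with a correlation of 0.8 or with no adjustment. That gene was ptg000027l.189, with an adjusted p of 0.0143 at a correlation of 0.8 and an unadjusted p of 0.0438 at 0.5. The share of all 171 genes listed for both congeners that passed at these 2 settings is not given here. The call is therefore not shown to be particular to this gene. No paired analysis was possible because the results come from tables of comparisons without values per sample, and for the same reason no replicate could be left out. Depth per sample is unknown.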
